A study of Mus musculus with 160 samples.

Results

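The 10 genes described here are dysferlin (Dysf) and the membrane repair genes Myof, Anxa1, Anxa2, Anxa6, Cav3, Trim72, Capn3, S100a10 and S100a11. They were taken by name from the 56980 gene IDs of the deposited count table, and all 10 were found. Poly-A RNA of 5 tissues was sequenced, all of it from males of 4 inbred mouse strains. A/J and SJL carry dysferlin mutations, and DBA/2J and C57BL/6J are not known as dysferlin mutants, so each of the first 2 strains was set against the mean of the last 2. The mice of every strain were fed American, Mediterranean, Vegetarian or Vegan mouse diets from 12 weeks of age for 6 weeks, and tissues were taken at 18 weeks. Each tissue had 32 libraries, 8 per strain, with 2 mice for each strain and diet, and the tissues were quadriceps muscle, liver and the brown, subcutaneous and visceral fat depots. Of 35 mice, 29 gave all 5 tissues and 6 gave fewer, so libraries of different tissues share animals. Whole inbred strains differ at many loci besides dysferlin, and no congenic or repaired line was among the samples, so the dysferlin alleles and the rest of each strain's genome cannot be told apart.

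Dysferlin is a large membrane protein of the ferlin family, built of calcium-binding C2 domains, that sits at the surface and transverse tubules of muscle fibres. When the membrane tears, calcium enters, and dysferlin, annexins, S100 proteins and TRIM72 (also called MG53) gather at the wound, where vesicles fuse and a protein cap closes it. Loss of dysferlin causes limb-girdle muscular dystrophy and Miyoshi myopathy in people and a slowly progressive myopathy in mice.

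The Dysf gene (ENSMUSG00000033788) lies on the plus strand of mouse chromosome 6 at chr6:83985345-84188042 (GRCm39), and its canonical transcript has 55 exons. In A/J mice an ETn retrotransposon is known to sit in intron 4, which spans 4796 bases in the reference, and in SJL mice a splice mutation is known to leave exon 45 out of the transcript. The reference sequences around both lesions are shown because they are where the alleles of the 2 strains differ in kind; capitals mark exon bases and lower case the adjoining 15 intronic bases, read 5′ to 3′ on the plus strand of GRCm39. Exons 4 (chr6:84035401-84035521 with its intronic bases) and 5 (chr6:84040288-84040417) flank the insertion site. Exon 45 (chr6:84166651-84166851) holds 171 bases, a whole number of 57 codons, so that its loss keeps the reading frame. Both lesions are in coding sequence or an intron and not in a UTR.
Dysf exon 4: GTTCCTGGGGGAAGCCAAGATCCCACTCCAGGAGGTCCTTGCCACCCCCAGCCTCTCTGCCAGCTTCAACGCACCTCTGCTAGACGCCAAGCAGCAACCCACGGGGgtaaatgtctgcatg
Dysf exon 5: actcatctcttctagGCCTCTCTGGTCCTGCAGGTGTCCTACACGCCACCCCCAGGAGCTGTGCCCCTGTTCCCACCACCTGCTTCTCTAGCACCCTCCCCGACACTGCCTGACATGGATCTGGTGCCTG
Dysf exon 45: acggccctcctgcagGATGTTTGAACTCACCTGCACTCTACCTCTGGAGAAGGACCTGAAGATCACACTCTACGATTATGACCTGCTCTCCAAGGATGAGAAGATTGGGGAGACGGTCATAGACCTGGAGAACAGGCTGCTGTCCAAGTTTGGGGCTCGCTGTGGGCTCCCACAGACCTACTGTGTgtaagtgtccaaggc
The deposited files count reads per gene and not per exon, so neither the insertion nor the exon skip was seen in them directly. A transcript that lacks exon 45 is still counted as Dysf.

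The other 9 genes lie on chromosomes 2, 3, 6, 7, 9, 11 and 19. S100a11 (chr3:93414382-93435293) and S100a10 (chr3:93462213-93474510) are close neighbours on the plus strand of chromosome 3. Myof (chr19:37887484-38032048) and Anxa1 (chr19:20350792-20368374) are both on the minus strand of chromosome 19, Cav3 (chr6:112436466-112449833) is on the same chromosome as Dysf, Anxa2 is at chr9:69360542-69399077, Anxa6 at chr11:54869654-54924305, Trim72 at chr7:127603062-127611190 and Capn3 at chr2:120294048-120338450, all in GRCm39. The counting mode by strand is not given in the sources used here, and 2 members share many exonic bases with other annotated genes. Capn3 shares 29.2% of its exonic bases with Gm52968 on the same strand and 26.8% with Zfp106 on the opposite strand, and Trim72 shares 20.6% with the antisense lncRNA Gm15533, so that their counts are the least certain of the set. For Dysf the overlaps with the antisense lncRNAs Gm33024 and Gm15475 cover 5.57% and 3.06% of exonic bases, and Dysf drew 170108 counts over all libraries against 1157 and 5579 counts for these lncRNAs.

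Promoters of Anxa1, Anxa2, S100a11 and Trim72 are shown because the first 3 were higher in SJL muscle than in A/J muscle and Trim72 is a gene of mature fibres that did not differ past the threshold. They come from RefSeq (GRCm38.p6, 250 bases before to 50 after the start), which held promoters for 8 of the 10 genes. Capitals mark letters found on either strand of an E-box (CANNTG), an AP-1 motif (TGANTCA) or a TATA box (TATAAA); no 2 of these motifs overlapped in the sequences shown. The Anxa2 promoter (chr9:69453433-69453732, plus strand) holds 1 AP-1 motif and 1 TATA box. The S100a11 promoter (chr3:93520246-93520545, plus strand) holds 2 AP-1 motifs and 2 E-boxes. In the Anxa1 promoter (chr19:20390622-20390921, minus strand) there are 1 TATA box and 1 E-box, and in that of Trim72 (chr7:128004128-128004427, plus strand) 3 E-boxes. Of 32851 promoters of this length, 7.8% hold the AP-1 letters, 13.6% the TATA letters and 72.3% an E-box. Dysf and Myof were also higher in SJL than in A/J muscle, and their promoters are not shown. Those of Dysf and Myof held no AP-1 motif and no TATA box, and only 1 E-box, in a Dysf promoter. All of these matches describe letters only.
Anxa1 promoter: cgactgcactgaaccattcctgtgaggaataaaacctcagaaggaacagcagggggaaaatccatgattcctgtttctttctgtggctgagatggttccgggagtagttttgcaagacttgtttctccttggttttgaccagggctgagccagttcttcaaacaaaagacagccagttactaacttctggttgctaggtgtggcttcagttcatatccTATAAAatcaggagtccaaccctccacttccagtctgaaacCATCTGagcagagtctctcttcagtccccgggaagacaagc
Anxa2 promoter: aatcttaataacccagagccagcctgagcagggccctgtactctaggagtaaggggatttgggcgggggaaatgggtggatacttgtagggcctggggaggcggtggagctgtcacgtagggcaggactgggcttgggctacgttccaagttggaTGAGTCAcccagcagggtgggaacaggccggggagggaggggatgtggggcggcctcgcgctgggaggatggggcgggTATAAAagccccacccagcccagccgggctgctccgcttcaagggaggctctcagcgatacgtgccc
S100a11 promoter: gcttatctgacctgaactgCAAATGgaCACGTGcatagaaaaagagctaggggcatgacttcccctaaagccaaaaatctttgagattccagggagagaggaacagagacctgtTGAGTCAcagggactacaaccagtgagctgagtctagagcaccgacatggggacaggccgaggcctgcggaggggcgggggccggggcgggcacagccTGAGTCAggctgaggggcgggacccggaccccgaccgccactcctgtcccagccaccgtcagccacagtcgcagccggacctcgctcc
Trim72 promoter: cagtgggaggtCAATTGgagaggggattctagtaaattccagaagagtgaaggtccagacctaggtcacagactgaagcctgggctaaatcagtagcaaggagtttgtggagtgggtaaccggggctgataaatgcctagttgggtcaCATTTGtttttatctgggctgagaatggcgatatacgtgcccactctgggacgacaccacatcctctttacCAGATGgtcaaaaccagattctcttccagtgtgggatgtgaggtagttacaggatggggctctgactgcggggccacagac

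Total counts per library, in M (mega) counts, were 20.0 to 30.4 M in muscle and 18.6 to 29.9 M in liver; among the fat depots they were 20.5 to 54.8 M (visceral), 18.9 to 38.7 M (subcutaneous) and 18.0 to 28.3 M (brown). The 10 muscle fibre markers were all expressed in muscle, where their sum was 70.5% to 134% of its median in the 32 libraries. Albumin (Alb), made by hepatocytes, was above 10% of its liver mean in 8 of 32 muscle, 4 brown, 4 subcutaneous and 9 visceral fat libraries. Among muscle libraries these were 2 of A/J, 0 of SJL, 2 of DBA/2J and 4 of C57BL/6J. Muscle fibre markers outside muscle reached up to 26.1% of their muscle level, in a visceral fat library of a C57BL/6J mouse. The visceral fat library of SJL mouse 50 had 0 CPM of the mesothelial gene Wt1 against a visceral median of 14.4 CPM, and the subcutaneous library of A/J mouse 24 had 0.318 CPM of Hoxc10 against a subcutaneous median of 16.6 CPM; results in these depots are given with and without them where a call changed. Levels of the 10 genes and the pathway genes within a tissue are CPM, the count of a gene relative to its library total, scaled by TMM factors. Summed marker levels and the levels of Alb, Wt1, Hoxc10 and Ucp1 are CPM without this scaling. Median TMM factors in muscle were 1.11 in SJL and 0.904 in C57BL/6J, so unscaled sums stand relatively higher in SJL than scaled levels do. Levels between genes or tissues are the deposited TPM, which allow for gene length.

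The muscle of A/J mice held less Dysf RNA than that of any other strain. Dysf ranged from 11 to 18.2 CPM in the 8 A/J libraries, with a median of 14.5 CPM. It ranged from 113.8 to 127.7 CPM (median 120.1) in the 8 SJL libraries, from 48.3 to 84.0 CPM (median 66.2) in DBA/2J and from 44.8 to 117.4 CPM (median 81.1) in C57BL/6J. Every A/J library lay below every library of the other 3 strains, and the SJL libraries were narrowly grouped and lay above all DBA/2J libraries, while a single C57BL/6J library reached among them. Dysf averaged 14.5 ± 2.04 CPM in A/J muscle and 74.6 ± 20.7 CPM in C57BL/6J and DBA/2J muscle (SD, n = 8 and 16). It was 5.12-fold lower in A/J (log2 difference -2.36, SE 0.139, 95% interval -2.63 to -2.08, adjusted p = 3.19e-13 in edgeR's quasi-likelihood test with Benjamini-Hochberg adjustment over all genes), and lower under each of the 4 diets. Dysf was 1.62-fold higher in SJL muscle, at 120.2 ± 4.83 CPM, than in C57BL/6J and DBA/2J muscle (log2 difference 0.70, SE 0.12, adjusted p = 3.21e-05), with 6 of 8 SJL libraries above the highest of the 16 and the mean higher under 4 of 4 diets. In bulk tissue, fewer cells of a type and less RNA per cell cannot be told apart.

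**Figure D1:**
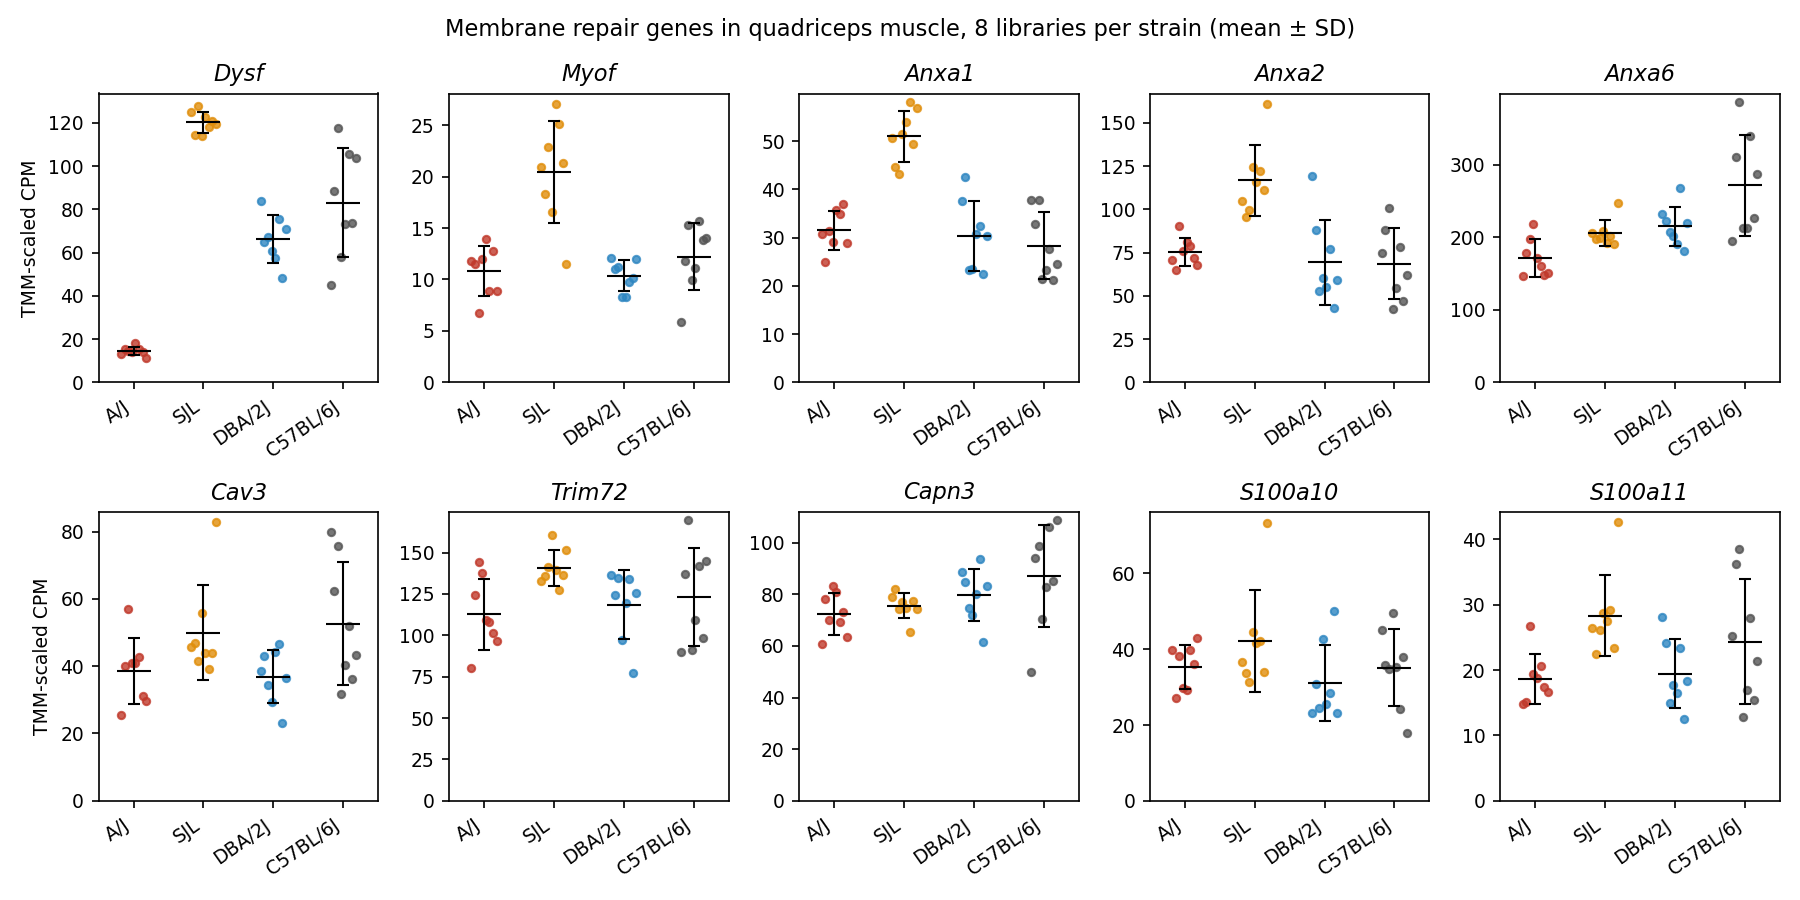
Levels of the 10 genes in quadriceps muscle, in TMM-scaled CPM on a linear axis, 1 point per library in the order A/J, SJL, DBA/2J, C57BL/6J (8 libraries each), with bars for the mean and SD of a strain. The Dysf panel shows all A/J points between 11 and 18.2 CPM and all SJL points between 113.8 and 127.7 CPM; in the other panels the strains overlap more.

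Set directly against each other, Dysf was 8.31-fold higher in SJL than in A/J muscle (log2 difference 3.06, SE 0.154, adjusted p = 1.66e-14), with all 8 SJL libraries above all 8 A/J libraries. DBA/2J and C57BL/6J did not differ past the threshold in Dysf, at 66.1 ± 11 CPM in DBA/2J and 83.1 ± 25.1 CPM in C57BL/6J (log2 difference -0.33, 95% interval -0.61 to -0.05, adjusted p = 0.124). The order of strains in muscle was thus SJL, C57BL/6J, DBA/2J and A/J, of which the neighbours C57BL/6J and DBA/2J were not told apart. Without the 8 muscle libraries rich in Alb, DBA/2J was lower than C57BL/6J (log2 difference -0.59, adjusted p = 0.000174), the A/J difference was -2.49 and the SJL difference 0.49 (adjusted p = 1.85e-05). Leaving out C57BL/6J mouse 1 (American diet) or mouse 8 (Mediterranean diet) also brought the DBA/2J difference past the threshold (adjusted p = 0.013 and 0.0456).

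Of the 10 genes, all of which passed the filter on low counts in muscle, Dysf and Anxa6 were called in A/J against C57BL/6J and DBA/2J, both lower; across all genes tested 14.5% were called, and 6.85% were called as lower. Anxa6, an annexin that forms part of the repair cap, ranged from 147.1 to 218.6 CPM (median 166.0) in A/J, 190.1 to 246.6 CPM (median 200.5) in SJL, 180.3 to 267.3 CPM (median 213.4) in DBA/2J and 194.3 to 386 CPM (median 257) in C57BL/6J. In 6 of 8 A/J libraries it was below the lowest of the 16 C57BL/6J and DBA/2J libraries, and the SJL libraries lay within the range of the C57BL/6J and DBA/2J libraries. Anxa6 averaged 171.6 ± 25.8 CPM in A/J and 243.1 ± 59.0 CPM in C57BL/6J and DBA/2J (1.41-fold lower, log2 difference -0.50, SE 0.108, adjusted p = 0.0015). With DBA/2J alone as the reference the difference was -0.33 (adjusted p = 0.0902).

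The remaining 8 genes did not pass the threshold in A/J muscle. Anxa1, Anxa2 and S100a10 had small positive differences of 0.12, 0.15 and 0.10 on the log2 scale (adjusted p = 0.562, 0.611 and 0.794 in edgeR's test). The others had negative ones: -0.06 for Myof, -0.19 for Cav3, -0.11 for Trim72, -0.20 for Capn3 and -0.21 for S100a11 (adjusted p between 0.205 and 0.885). The 95% interval for Myof, the ferlin nearest to dysferlin in sequence, was -0.36 to 0.24. Without the libraries rich in Alb, Trim72 (-0.23, adjusted p = 0.0179) and Capn3 (-0.29, adjusted p = 0.00414) were called lower in A/J, and Capn3 was also called without C57BL/6J mouse 1 alone (adjusted p = 0.029).

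In SJL muscle 4 of the 10 genes were called against C57BL/6J and DBA/2J, all higher: Dysf, Myof, Anxa1 and Anxa2. Across all genes tested 37.9% were called in this comparison and 20.4% were called as higher, so a call of itself is common here. Myof, a ferlin of myoblasts with a part in their fusion, ranged from 11.5 to 27.0 CPM (median 21.1) in SJL, against 6.69 to 13.9 CPM (median 11.7) in A/J, 8.29 to 12.0 CPM (median 10.6) in DBA/2J and 5.85 to 15.7 CPM (median 12.8) in C57BL/6J. All but 1 of the SJL libraries were above every library of the other strains. It averaged 20.5 ± 4.97 CPM in SJL and 11.3 ± 2.64 CPM in C57BL/6J and DBA/2J (1.81-fold, log2 difference 0.86, SE 0.148, adjusted p = 3.44e-05).

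Anxa1, an annexin that binds membrane in the presence of calcium and is found with dysferlin, ranged from 43.2 to 58.1 CPM (median 51.0) in SJL muscle, 25.0 to 37.0 CPM (median 31) in A/J, 22.4 to 42.5 CPM (median 30.6) in DBA/2J and 21.3 to 37.9 CPM (median 26.1) in C57BL/6J. All 8 SJL libraries were above all 24 others, and the other 3 strains overlapped. The difference from C57BL/6J and DBA/2J (51.1 ± 5.31 CPM in SJL against 29.4 ± 6.91 CPM in C57BL/6J and DBA/2J) was 1.76-fold (log2 0.81, SE 0.11, adjusted p = 7.86e-07). Anxa2, the other annexin known to bind dysferlin, ranged from 95.5 to 161.0 CPM (median 113.4) in SJL, 65.1 to 90.3 CPM (median 74.0) in A/J, 42.8 to 119.4 CPM (median 59.7) in DBA/2J and 42.1 to 100.7 CPM (median 68.5) in C57BL/6J. Only 3 of 8 SJL libraries were above the highest of the 16 libraries, a DBA/2J one, yet the SJL mean was higher under all 4 diets. Anxa2 averaged 116.7 ± 20.6 CPM in SJL and 68.9 ± 21.9 CPM in C57BL/6J and DBA/2J (1.73-fold, log2 difference 0.79, SE 0.147, adjusted p = 8.5e-05).

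The S100 partners of the annexins showed positive differences in SJL muscle that missed the threshold. S100a11, which pairs with annexin A1, averaged 28.3 ± 6.25 CPM in SJL and 21.9 ± 7.85 CPM in C57BL/6J and DBA/2J (log2 difference 0.40, adjusted p = 0.0597 in edgeR's test). S100a10, which joins annexin A2 in a heterotetramer, averaged 42.2 ± 13.5 CPM in SJL and 33.1 ± 9.97 CPM in C57BL/6J and DBA/2J (0.35, adjusted p = 0.0986). S100a11 ranged from 22.5 to 42.7 CPM in SJL, 14.8 to 26.7 CPM in A/J, 12.5 to 28.1 CPM in DBA/2J and 12.8 to 38.6 CPM in C57BL/6J, and S100a10 from 31.2 to 73.4, 27.1 to 42.9, 23.3 to 50.2 and 17.9 to 49.5 CPM in the same order of strains. The SJL libraries overlapped the others for both genes. S100a11 passed the threshold without any 1 of the libraries of SJL mouse 50, DBA/2J mouse 33 and C57BL/6J mice 2 and 7 (adjusted p = 0.0402, 0.0399, 0.0345 and 0.0181), S100a10 without DBA/2J mouse 45 (0.0474). S100a10 was also called with Alb as a covariate (log2 0.53, adjusted p = 0.0065), without the libraries rich in Alb (0.62, 0.0045), with limma on log2(TPM+1) (0.58, 0.00489) and with totals left unscaled (0.54, 0.0104). S100a11 was called with limma (0.65, 0.000214), unscaled (0.63, 0.000751) and against DBA/2J alone (0.57, 0.0315), while its value was 0.16 without the libraries rich in Alb (adjusted p = 0.446).

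The genes of mature fibres were not called in SJL muscle. Trim72 ranged from 127.2 to 160.4 CPM in SJL, 80.5 to 144.1 CPM in A/J, 77.2 to 136.4 CPM in DBA/2J and 89.9 to 169.9 CPM in C57BL/6J, Cav3 from 39.2 to 82.8, 25.4 to 56.9, 23.0 to 46.5 and 31.7 to 79.9 CPM in the same order of strains, and Capn3 from 65.5 to 81.9, 60.7 to 83.3, 61.6 to 93.5 and 50.0 to 108.9 CPM. The 4 strains overlapped for each of these genes. Cav3, the muscle caveolin, averaged 50.0 ± 14.2 CPM in SJL and 44.8 ± 15.8 CPM in C57BL/6J and DBA/2J (log2 difference 0.20, 95% interval -0.12 to 0.53, adjusted p = 0.357). Trim72, the E3 ligase MG53 that brings vesicles to a tear, averaged 140.7 ± 10.6 CPM in SJL and 120.7 ± 24.9 CPM in C57BL/6J and DBA/2J (0.22, adjusted p = 0.128), and Capn3, the muscle calpain that cleaves cytoskeletal proteins, 75.5 ± 4.82 CPM in SJL and 83.4 ± 15.5 CPM in C57BL/6J and DBA/2J (-0.14, adjusted p = 0.294). Anxa6 averaged 205.2 ± 17.9 CPM in SJL and 243.1 ± 59.0 CPM in C57BL/6J and DBA/2J (-0.23, adjusted p = 0.0873). These calls moved with the scaling and with the libraries used. With library totals left unscaled, which shifts the median of all genes by 0.21, Cav3 (0.41, adjusted p = 0.0212) and Trim72 (0.44, adjusted p = 0.000379) were called higher, as they were with limma on log2(TPM+1) (0.42 and 0.48, adjusted p = 0.00743 and 0.000547). Without the libraries rich in Alb, Anxa6 (-0.41, adjusted p = 0.000454) and Capn3 (-0.30, adjusted p = 0.000519) were called lower, and so they were with Alb as a covariate (-0.35 and -0.25, adjusted p = 0.000843 and 0.0168). Anxa6 was also called without any 1 of C57BL/6J mouse 1, C57BL/6J mouse 8 and SJL mouse 64 (adjusted p = 0.0421, 0.0458 and 0.0338).

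**Figure D2:**
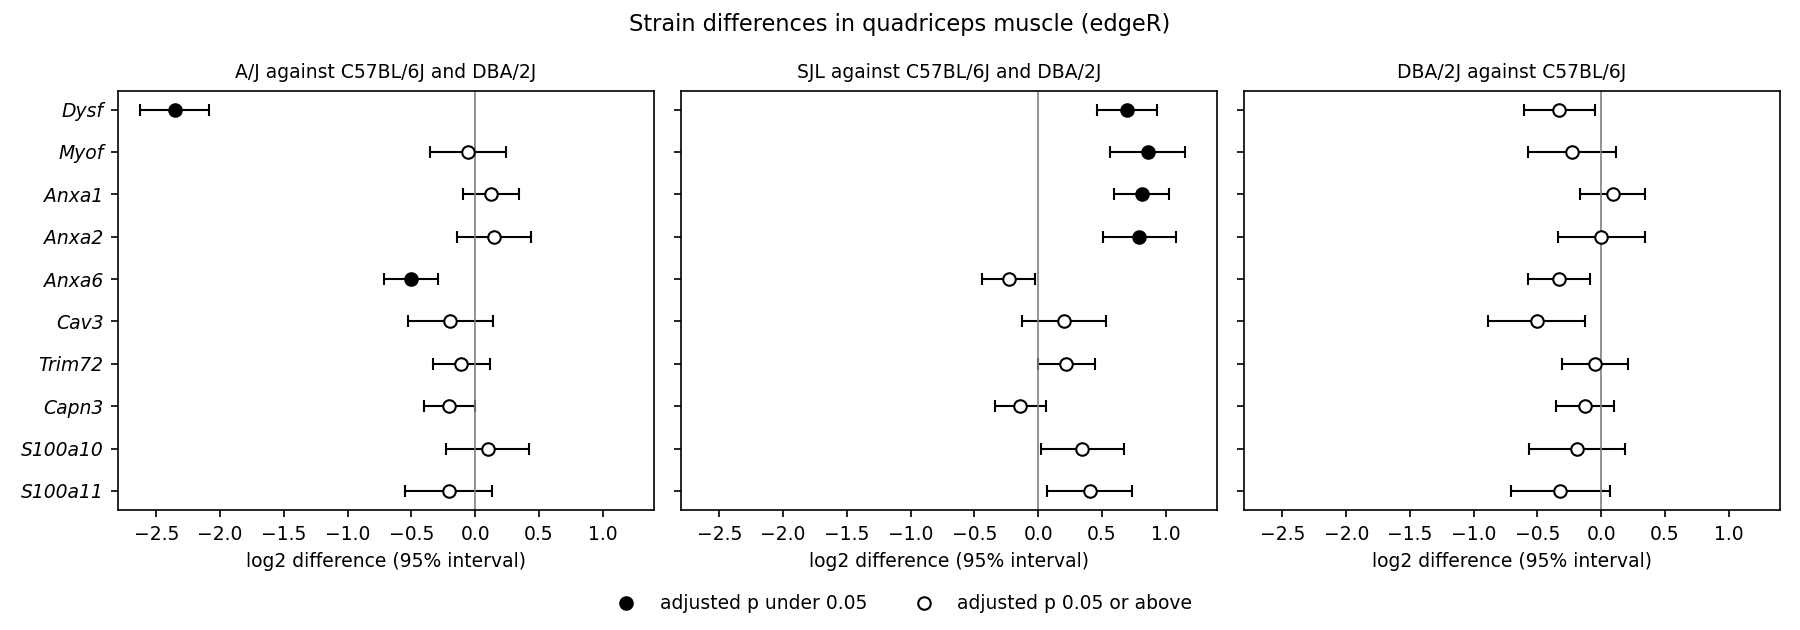
Log2 difference in muscle for the 10 genes (horizontal axis) with its 95% interval, in 3 panels for A/J and SJL against the mean of C57BL/6J and DBA/2J and for DBA/2J against C57BL/6J; filled points have an adjusted p under 0.05. Dysf is at -2.36 in A/J and 0.70 in SJL, Myof, Anxa1 and Anxa2 are filled in SJL and not in A/J, and no point is filled between DBA/2J and C57BL/6J.

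The difference between SJL and A/J muscle was tested directly, and 5 of the 10 genes were called, all higher in SJL: Dysf, Myof, Anxa1, Anxa2 and S100a11. Across all genes 22.5% were called, 14% as higher in SJL. Anxa1 and Anxa2 did not overlap between the 2 strains (8 of 8 SJL libraries above all A/J libraries). Such separation is only described, here and in the other tissues, since the share of all genes without overlap is not given. Myof was 1.89-fold higher in SJL (adjusted p = 0.000259), Anxa1 1.61-fold (0.000193), Anxa2 1.56-fold (0.00697) and S100a11 1.53-fold (log2 difference 0.61, SE 0.198, adjusted p = 0.0259), with 4 of 8 SJL libraries of S100a11 above the highest A/J library. The S100a11 call was lost without any 1 of A/J mouse 17, A/J mouse 18 and SJL mouse 64 (adjusted p = 0.0571, 0.0554 and 0.0758), and with Alb as a covariate (0.0512). Trim72 (0.33, adjusted p = 0.0709), Cav3 (0.40, 0.143), Anxa6 (0.27, 0.117), S100a10 (0.25, 0.396) and Capn3 (0.06, 0.768) were not called, though Trim72 was without A/J mouse 22 (0.0488) and without the libraries rich in Alb (0.0154). Trim72, Cav3 and Anxa6 were called with limma on log2(TPM+1) (adjusted p = 0.0053, 0.011 and 0.0024) and unscaled (0.00581, 0.0397 and 0.00299). Over the 10 genes the median log2 difference was 0.50, against 0.02 over all genes.

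Between DBA/2J and C57BL/6J muscle 0 of the 10 genes were called by edgeR, where 15.6% of all genes were; 3 had an unadjusted p under 0.05, as did 5597 of the 20118 genes tested. Besides Dysf these were Anxa6 (215 ± 27.0 CPM in DBA/2J and 271.3 ± 70.1 CPM in C57BL/6J, log2 difference -0.33, adjusted p = 0.0656) and Cav3 (36.9 ± 7.92 CPM in DBA/2J and 52.7 ± 18.2 CPM in C57BL/6J, -0.51, adjusted p = 0.0781). DESeq2 called 2 of the 10, Anxa6 and Cav3, and limma on log2(TPM+1) called 1, Anxa1. This comparison turned on single libraries, with 0 to 3 genes called when 1 library was left out (3 without C57BL/6J mouse 8). Anxa6 passed without C57BL/6J mouse 1, 8 or 9, DBA/2J mouse 43 or SJL mouse 64 (adjusted p = 0.0196, 0.0223, 0.0339, 0.0306 and 0.0476), and Cav3 without C57BL/6J mouse 8 or SJL mouse 64 (0.0272 and 0.0311). Without the libraries rich in Alb, 5 were called, all lower in DBA/2J: Dysf, Anxa6, Cav3, Capn3 and S100a11.

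Markers of some other cell types moved with the SJL muscle comparison. The counts given here stand beside 37.9% of all genes called in SJL muscle, 20.4% as higher. In A/J muscle 14.5% of all genes were called, 6.85% as lower. Of 10 macrophage markers 9 were higher in SJL (median log2 difference 1.23). Their summed unscaled level was 649 to 1073 CPM in SJL, 347 to 521 CPM in A/J, 276 to 339 CPM in DBA/2J and 238 to 515 CPM in C57BL/6J. Of 8 fibroblast markers 6 were higher (median 0.68; 2445 to 3771 CPM in SJL, 1692 to 2762 CPM in A/J, 1239 to 1948 CPM in DBA/2J and 1077 to 2314 CPM in C57BL/6J). Of 10 markers of regenerating fibres and myoblasts 6 were higher in SJL (median 1.29), with Mymk, the myoblast fusion protein myomaker, at a log2 difference of 4.70. In A/J muscle 5 of these 10 were higher and 1, Pax7, lower, with 1 of 10 macrophage and 2 of 8 fibroblast markers higher. Of 10 muscle fibre markers 4 were lower in SJL and 1 in A/J, and none of the defining markers of these lists was at 0 in muscle. Of 4 brown adipocyte markers 3 were higher in SJL, of 5 adipocyte markers 1, of 5 T and B cell markers 1, and of 6 endothelial markers none passed (smallest adjusted p = 0.192 in edgeR). Hepatocyte markers were lower in SJL muscle in 5 of 5 cases (median -3.11), at 320 to 2336 CPM in SJL, 12.2 to 28120 CPM in A/J, 1188 to 45674 CPM in DBA/2J and 29.7 to 27250 CPM in C57BL/6J. The part of macrophages, fibroblasts and regenerating fibres in the differences of Myof, Anxa1 and Anxa2 was not tested. The 4 calls in SJL held without the libraries rich in Alb (Myof 0.72, Anxa1 0.69, Anxa2 0.58).

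Other genes of the repair pathway were read as lists. Of 19 further repair genes and dysferlin partners, 6 were higher and 1 lower in SJL muscle (median 0.02) and 4 higher and 0 lower in A/J (median 0.05), where the medians over all genes were 0.01 and -0.01. The 7 calls in SJL and 4 in A/J are read against 37.9% and 14.5% of all genes called in the same comparisons (20.4% as higher in SJL), and the same shares apply to the lists that follow. Lgals3 (galectin 3, a lectin that marks damaged endosomes and is abundant in macrophages) averaged 45.4 ± 11.4 CPM in SJL, 15.3 ± 2.84 CPM in A/J and 8.00 ± 4.98 CPM in C57BL/6J and DBA/2J. The differences were 5.83-fold in SJL (log2 2.54, adjusted p = 1.59e-09) and 0.97 on the log2 scale in A/J (adjusted p = 0.00573). S100a4, a calcium-binding protein of fibroblasts and macrophages, averaged 16.2 ± 6.80 CPM in SJL, 8.41 ± 1.98 CPM in A/J and 5.27 ± 2.60 CPM in C57BL/6J and DBA/2J (log2 1.68 and 0.73, adjusted p = 2.29e-07 and 0.0188). Ahnak, a giant scaffold protein that binds dysferlin and the annexin A2 and S100A10 complex, averaged 410.5 ± 89.9 CPM in A/J and 274.6 ± 62.3 CPM in C57BL/6J and DBA/2J (log2 0.59, adjusted p = 0.00247), and rose by 0.47 in SJL (adjusted p = 0.00763). Also higher in A/J was Parvb, affixin, a dysferlin-binding adaptor (0.33, adjusted p = 0.0432), and the gene lower in SJL was Smpd1, acid sphingomyelinase (-0.37, adjusted p = 0.0047).

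Of the other ferlins 2 of 4 were tested. Fer1l5 was lower in A/J muscle (5.08 ± 0.905 CPM in A/J against 8.10 ± 1.92 CPM in C57BL/6J and DBA/2J, log2 difference -0.67, adjusted p = 0.00033) and Fer1l6 in SJL muscle (2.73 ± 0.437 CPM in SJL against 7.26 ± 1.99 CPM in C57BL/6J and DBA/2J, -1.39, adjusted p = 1.1e-09). Among 8 of 9 other annexins tested, 2 were higher and 1 lower in SJL (median -0.06), and 1 was higher and 2 lower in A/J (median 0.03). Anxa5, a major annexin of the repair site, averaged 80.8 ± 6.43 CPM in SJL and 55.1 ± 9.23 CPM in C57BL/6J and DBA/2J (log2 0.55, adjusted p = 6.16e-06), while Anxa4 was higher in SJL (0.71, adjusted p = 1.09e-06) and in A/J (0.35, 0.0153). Anxa11 was lower in both strains (-0.29, adjusted p = 0.0228 in SJL; -0.32, 0.0276 in A/J), and Anxa8 was lower in A/J (-0.53, 0.0277). Of 6 caveola genes 4 were higher in SJL, Cav1, Cavin1, Cavin2 and Cavin4, by 0.24 to 0.42 on the log2 scale (adjusted p between 0.0154 and 0.0475), where 20.4% of all genes were called as higher; in A/J the smallest adjusted p of these genes was 0.134. Of 12 genes of the dystrophin and laminin complexes 2 were called in SJL, Lama2 and Itga7, both higher (0.51 and 0.29, median of the list 0.06). In A/J 2 were called, both lower, 1 of them Sgcb (-0.30). The 4 other calpain genes did not pass in either strain (smallest adjusted p = 0.0572 in SJL and 0.0662 in A/J).

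Across tissues Dysf was lower in A/J than in C57BL/6J and DBA/2J in all 5. In brown fat it ranged from 6.73 to 11.5 CPM (median 7.49) in A/J, 49.5 to 70.1 CPM (median 56.4) in SJL, 48.5 to 71.5 CPM (median 55.4) in DBA/2J and 40.2 to 56.3 CPM (median 50.3) in C57BL/6J. The A/J libraries were again apart from all others, and the remaining 3 strains overlapped. The difference was 6.55-fold (8.26 ± 1.69 CPM in A/J against 54.0 ± 8.41 CPM in C57BL/6J and DBA/2J, log2 -2.71, SE 0.101, adjusted p = 3.83e-18). In subcutaneous fat Dysf ranged from 9.12 to 29.6 CPM (median 15.2) in A/J, 29.6 to 56.4 CPM (median 43.7) in SJL, 52.4 to 94.3 CPM (median 66.4) in DBA/2J and 27.2 to 56.4 CPM (median 45.6) in C57BL/6J. The highest A/J library reached the lowest of SJL and C57BL/6J, and the difference was 3.23-fold (16.9 ± 7.32 CPM in A/J against 55.4 ± 16.1 CPM in C57BL/6J and DBA/2J, log2 -1.69, SE 0.183, adjusted p = 6.67e-08).

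In visceral fat Dysf ranged from 12.4 to 32.1 CPM (median 18.5) in A/J, 48.7 to 80.8 CPM (median 67.3) in SJL, 49.4 to 69.3 CPM (median 59.8) in DBA/2J and 39.3 to 76.2 CPM (median 56.9) in C57BL/6J, with no overlap between A/J and the rest (2.97-fold, log2 -1.57, SE 0.162, adjusted p = 7.96e-08). In liver, where Dysf was scarce, the gene ranged from 1.09 to 2.26 CPM (median 1.22) in A/J, 5.55 to 12.3 CPM (median 7.10) in SJL, 3.03 to 5.72 CPM (median 4.09) in DBA/2J and 3.79 to 6.69 CPM (median 5.03) in C57BL/6J. The A/J livers gave 26 to 49 counts of Dysf each. They lay below all other livers, and the difference was 3.19-fold (log2 -1.67, SE 0.177, adjusted p = 7.98e-09). Dysf was higher in SJL than in C57BL/6J and DBA/2J also in liver (7.78 ± 2.22 CPM in SJL against 4.68 ± 1.05 CPM in C57BL/6J and DBA/2J, 1.66-fold, log2 0.73, SE 0.15, adjusted p = 0.000361), with 5 of 8 SJL livers above all 16. In brown, subcutaneous and visceral fat the SJL differences were 0.10, -0.31 and 0.20 (adjusted p = 0.443, 0.149 and 0.381).

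**Figure D3:**
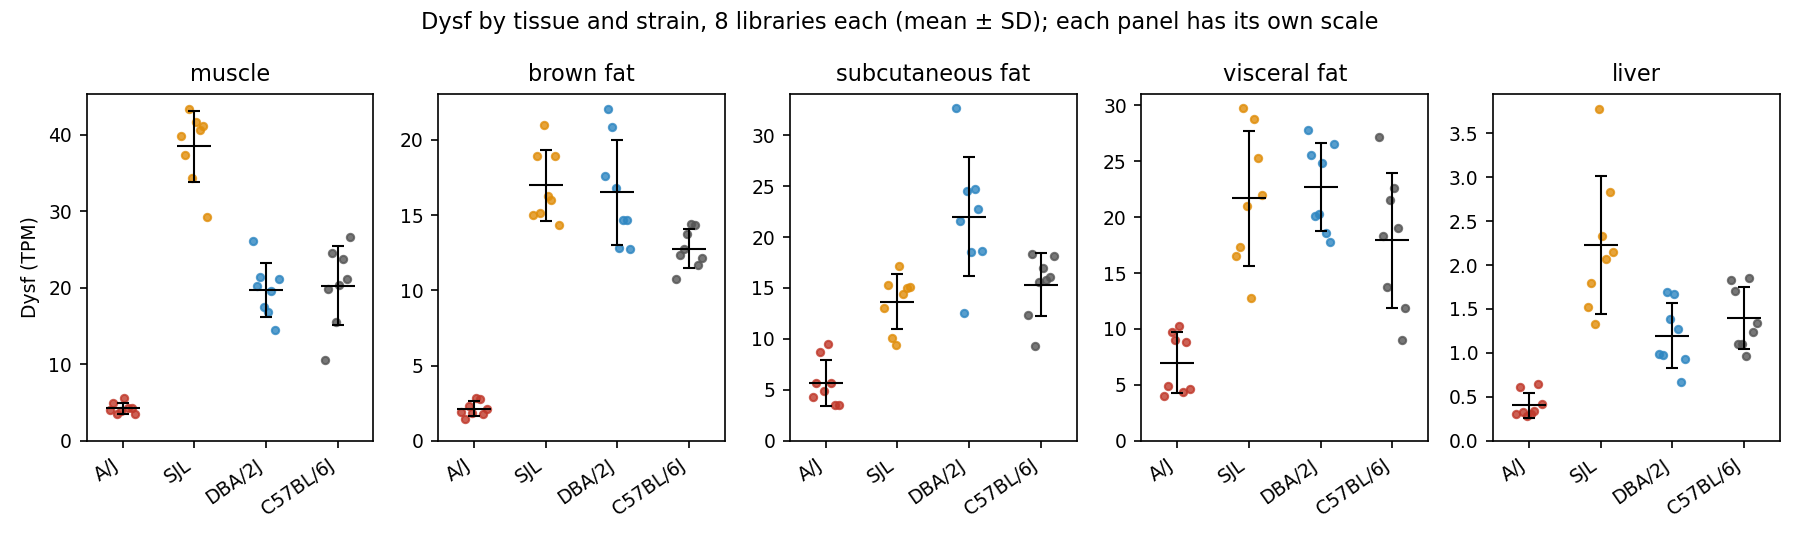
Dysf in the deposited TPM by tissue (panels, each with its own linear scale) and strain, 1 point per library and bars for mean and SD (8 libraries each). A/J has the lowest mean in every tissue; SJL has the highest mean in muscle (38.5 TPM) and in liver.

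The size of the strain differences was compared between muscle and the other tissues in a fit of all 160 libraries. The A/J difference of Dysf was lower in muscle than its mean in the other 4 tissues by a log2 value of -0.46 (SE 0.162, adjusted p = 0.0498), close to the threshold. It missed the threshold with other size factors (RLE, adjusted p = 0.0522), without a filter on low counts (0.113) and without scaling (0.268). Muscle was not the tissue with the largest A/J difference, which was -2.71 in brown fat against -2.36 in muscle. For SJL the Dysf difference was 0.44 greater in muscle than its mean in the other 4 tissues (SE 0.157, adjusted p = 0.0189), and 0.26 without the libraries rich in Alb (adjusted p = 0.229). In liver alone the SJL difference was 0.73, against 0.70 in muscle. Of the 10 genes, 2 were called in A/J, where 11% of all genes were called, and 6 in SJL, all greater in muscle, where 36.2% of all genes were called and 14.9% as greater in muscle.

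The other SJL calls in this fit were Myof, Anxa1, Anxa2 and both S100 genes. The SJL difference was greater in muscle than elsewhere for Myof (1.32, SE 0.173, adjusted p = 2.74e-10), Anxa2 (1.28, SE 0.179, 2.3e-09), Anxa1 (0.95, 6.72e-07), S100a11 (0.91, 7.72e-06) and S100a10 (0.53, 0.00155). For A/J, Anxa2 was the other gene called (0.55, SE 0.181, adjusted p = 0.0322; 0.39, adjusted p = 0.159 without the libraries rich in Alb), and Myof fell just short (0.50, adjusted p = 0.0511). For Myof, Anxa1 and Anxa2 the SJL values were positive in muscle and negative in subcutaneous and visceral fat.

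**Figure D4:**
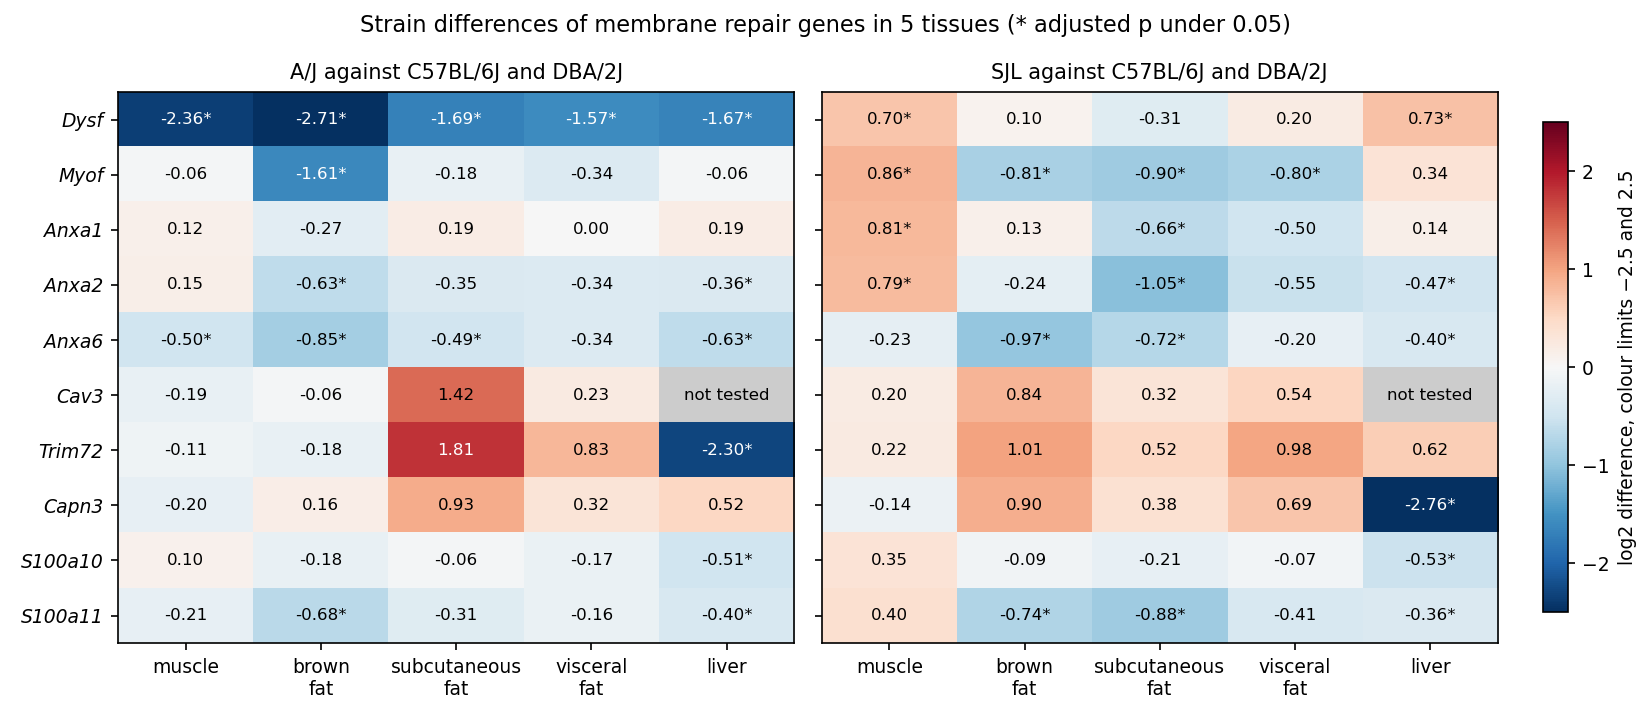
Heat map of log2 differences from the mean of C57BL/6J and DBA/2J for the 10 genes (rows) in 5 tissues (columns), A/J on the left and SJL on the right; the colour scale runs from -2.5 to 2.5, and a star marks an adjusted p under 0.05 within a tissue. Dysf is starred in all 5 tissues in A/J, and Myof in SJL changes sign between muscle (0.86) and the fats.

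In brown fat 5 of the 10 genes were called in A/J, all lower, with 36.1% of all genes called and 18.8% called as lower. Anxa6 averaged 222.2 ± 22.8 CPM in A/J and 400.9 ± 36.0 CPM in C57BL/6J and DBA/2J (log2 difference -0.85, adjusted p = 2.85e-12), and Myof 3.67 ± 0.871 CPM in A/J and 11.9 ± 5.10 CPM in C57BL/6J and DBA/2J (-1.61, adjusted p = 5.43e-08). Neither gene overlapped between the groups. Anxa2 (-0.63, adjusted p = 0.002) and S100a11 (-0.68, 0.000108) were the others besides Dysf. In SJL brown fat 3 genes were called, all lower, with 23.9% of all genes called and 12.3% called as lower: Anxa6 at 203.8 ± 8.17 CPM (-0.97, adjusted p = 1.94e-13, 8 of 8 libraries below all of C57BL/6J and DBA/2J), Myof (-0.81, 0.000679) and S100a11 (-0.74, 4.35e-05). SJL against A/J brown fat called Dysf (2.81 higher, adjusted p = 6.26e-18) and Myof (0.80, 0.00282), with 26.1% of all genes called and 13.9% called as higher in SJL. DBA/2J against C57BL/6J called Myof (0.83), Anxa1 (1.10) and S100a10 (0.30), all higher in DBA/2J (27.9% of all genes called, 15.5% as higher). Macrophage markers in brown fat summed to 154 to 230 CPM in A/J, 207 to 437 CPM in SJL, 281 to 661 CPM in DBA/2J and 149 to 386 CPM in C57BL/6J, and fibroblast markers to 620 to 986 CPM in A/J, 932 to 1637 CPM in SJL, 831 to 2072 CPM in DBA/2J and 786 to 1471 CPM in C57BL/6J. The part of these cells was not tested.

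Subcutaneous fat had 2 called genes in A/J, Dysf and Anxa6 (-0.49, adjusted p = 0.00207), with 17.3% of all genes called and 8.41% called as lower. In SJL 5 were called, all lower, with 42.2% of all genes called and 21.2% called as lower. Anxa2 averaged 432.1 ± 53.9 CPM in SJL and 933.6 ± 361.4 CPM in C57BL/6J and DBA/2J (log2 difference -1.05, adjusted p = 1.87e-05), though 0 of 8 SJL libraries lay below all 16 others. Myof averaged 32.8 ± 6.74 CPM in SJL and 60.8 ± 11.5 CPM in C57BL/6J and DBA/2J (-0.90, adjusted p = 1.01e-06), with 7 of 8 SJL libraries below all 16. In Anxa2 the 2 control strains differed in mean, at 1188 ± 237 CPM in DBA/2J and 680 ± 276 CPM in C57BL/6J. Their ranges overlapped (794 to 1545 CPM and 369 to 1209 CPM). S100a11 (-0.88, adjusted p = 3.3e-05), Anxa6 (-0.72, 7.28e-06) and Anxa1 (-0.66, 0.000821) were also lower. Fibroblast markers summed to 2424 to 4669 CPM in SJL, 5901 to 10095 CPM in A/J, 3866 to 8234 CPM in DBA/2J and 6314 to 9521 CPM in C57BL/6J, and brown adipocyte markers summed to 1326 to 3820 CPM in SJL, 28.4 to 2067 CPM in A/J, 53.7 to 251 CPM in DBA/2J and 25.3 to 1133 CPM in C57BL/6J. Their part in the result was not tested. SJL against A/J called 5 genes, with 33.7% of all genes called: Dysf was higher in SJL (1.39, adjusted p = 4.61e-06), and Myof (-0.72), Anxa1 (-0.85), Anxa2 (-0.69) and S100a11 (-0.57) were lower (adjusted p between 0.000135 and 0.00987). DBA/2J against C57BL/6J called Dysf (0.59, adjusted p = 0.0189), Anxa2 (0.83), Anxa6 (0.34), S100a10 (0.38) and S100a11 (0.50), all higher in DBA/2J, with 35.7% of all genes called and 19% called as higher.

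Visceral fat had 1 called gene in each strain, Dysf in A/J (15% of all genes called, 6.64% as lower) and Myof in SJL (18.7% of all genes called, 9.25% as lower). Myof averaged 49.9 ± 17.7 CPM in SJL and 87.6 ± 21.5 CPM in C57BL/6J and DBA/2J (log2 difference -0.80, adjusted p = 0.00178), with 3 of 8 SJL libraries below all 16. Anxa1 (-0.50, adjusted p = 0.0674) and Anxa2 (-0.55, 0.0678) had negative values in SJL that edgeR did not call and DESeq2 did. Anxa6 in A/J (-0.34, adjusted p = 0.0624) was called once SJL mouse 50, which lacked Wt1, was left out. Fibroblast markers summed to 1425 to 4319 CPM in SJL visceral fat, 2914 to 7141 CPM in A/J, 6296 to 7802 CPM in DBA/2J and 1882 to 4752 CPM in C57BL/6J, and their part was not tested. SJL against A/J called Dysf (1.77 higher, adjusted p = 5.33e-08), with 10.7% of all genes called and 4.38% called as higher in SJL. DBA/2J against C57BL/6J called 0 of the 10 in edgeR, with 19.2% of all genes called; the smallest adjusted p were 0.0697 for Anxa2 (0.61) and 0.0702 for Myof (0.50), and 3 of the 10 had an unadjusted p under 0.05, as did 7560 of the 22715 genes tested.

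In liver 9 of the 10 genes were tested, since Cav3 had 0 to 10 counts per library and did not pass the filter. In A/J 6 were called, all lower, with 26.7% of all genes called and 13.3% called as lower, and in SJL 6, with 28% of all genes called. Anxa6 averaged 69.0 ± 7.33 CPM in A/J and 107.2 ± 21.3 CPM in C57BL/6J and DBA/2J (log2 difference -0.63, adjusted p = 1.51e-05), without overlap, and 81.7 ± 19.0 CPM in SJL (-0.40, adjusted p = 0.0029). Anxa2 (-0.36 in A/J and -0.47 in SJL, adjusted p = 0.0152 and 0.00143), S100a10 (-0.51 and -0.53, 0.00967 and 0.00677) and S100a11 (-0.40 and -0.36, 0.0128 and 0.0255) were lower in both strains. S100a11 averaged 3.70 ± 0.360 CPM in A/J, 3.86 ± 0.982 CPM in SJL, 3.79 ± 0.969 CPM in DBA/2J and 6.38 ± 1.26 CPM in C57BL/6J. The A/J and SJL means were thus close to that of DBA/2J, and C57BL/6J alone stood higher. In SJL the S100a10 and S100a11 calls were lost with the muscle fibre markers as a covariate (adjusted p = 0.0538 and 0.149), and that of S100a11 without a filter on low counts (0.0534). Hepatocyte markers in liver summed to 122290 to 146256 CPM in A/J, 79917 to 136055 CPM in SJL, 89641 to 118283 CPM in DBA/2J and 72216 to 107408 CPM in C57BL/6J. Every A/J library was above every DBA/2J and C57BL/6J library. Fibroblast markers there summed to 199 to 245 CPM in A/J, 191 to 239 CPM in SJL, 223 to 271 CPM in DBA/2J and 212 to 300.3 CPM in C57BL/6J. Their part in the liver results was not tested.

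Trim72 and Capn3, genes of muscle, differed in liver at very low levels. Trim72 averaged 0.188 ± 0.211 CPM in A/J liver and 0.910 ± 0.329 CPM in C57BL/6J and DBA/2J liver (log2 difference -2.30, adjusted p = 2.75e-05), and the A/J values rest on 0 to 12 counts per library. Capn3 averaged 0.422 ± 0.411 CPM in SJL and 2.92 ± 1.29 CPM in C57BL/6J and DBA/2J (-2.76, adjusted p = 4.56e-09), with 1 to 28 counts per SJL library and all 8 below all 16. Between DBA/2J and C57BL/6J liver 2 of the 9 genes tested were called, where 25.3% of all genes were. Capn3 was higher in DBA/2J (4.02 ± 0.835 CPM in DBA/2J against 1.82 ± 0.302 CPM in C57BL/6J, 1.12, adjusted p = 0.00167, no overlap). S100a11 was lower in DBA/2J (3.79 ± 0.969 CPM in DBA/2J against 6.38 ± 1.26 CPM in C57BL/6J, -0.75, adjusted p = 8.57e-05, with 7 of 8 DBA/2J livers below all C57BL/6J livers). SJL against A/J liver called 3 genes, without overlap, with 27% of all genes called: Dysf (2.40, adjusted p = 2.06e-11) and Trim72 (2.93, 1.71e-06) were higher in SJL and Capn3 (-3.28, 5.36e-10) lower. Trim72 and Capn3 share exonic bases with the neighbours named earlier, so these small counts cannot be given to Trim72 or Capn3 with certainty. Muscle fibre markers in liver had a median sum of 290 CPM in SJL, 60.4 CPM in A/J, 121 CPM in DBA/2J and 50.8 CPM in C57BL/6J. Over the 32 livers the log2 fibre sum correlated with log2(TPM+1) of Trim72 at r = 0.576, of Dysf at 0.504 and of Capn3 at -0.143. These r are descriptions.

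Across tissues the 10 genes fell into groups by level, given here as TPM over 32 libraries per tissue. Cav3, Trim72 and Capn3 were muscle genes: Cav3 averaged 90.4 ± 21.7 TPM in muscle and 5.23 ± 7.12 TPM in subcutaneous fat, the next tissue, Trim72 133 ± 28.2 TPM in muscle and 7.85 ± 6.29 TPM in brown fat, and Capn3 43.6 ± 6.88 TPM in muscle and 2.54 ± 2.69 TPM in subcutaneous fat. No muscle library of these 3 genes overlapped any library of the next tissue. Muscle levels were above the log2 mean of the other 4 tissues by 75.7-fold for Cav3, 51.6-fold for Trim72 and 35.3-fold for Capn3. In this comparison 8 of the 10 genes and 81.2% of all genes were called. The log2 mean averages log2 levels of TMM-scaled counts, so that low liver levels pull it down. The folds are therefore not ratios of the TPM means given here. Levels of the 3 in fat moved with fibre markers: over the 32 libraries of a fat depot, their log2(TPM+1) correlated with the log2 sum of the fibre markers at r between 0.86 and 0.95, whereas Dysf gave r between -0.17 and 0.23. The points share libraries, strains and animals, and these r are descriptions. They pool the 4 strains, and Dysf was lower in A/J in each fat depot, so its r cannot show how far Dysf follows fibre content.

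Dysf was spread more evenly over tissues. It averaged 20.7 ± 12.9 TPM in muscle, 17.3 ± 7.85 TPM in visceral fat, 14.2 ± 6.88 TPM in subcutaneous fat, 12.1 ± 6.44 TPM in brown fat and 1.30 ± 0.797 TPM in liver, and only brown fat and liver, 9.27-fold apart, differed as neighbours in this order by more than their SDs, though the lowest A/J values of brown fat still overlapped the liver range. With strain and diet in edgeR's fit, Dysf was 3.55-fold higher in muscle than the log2 mean of the other 4 tissues (log2 1.83, adjusted p = 7.26e-53). The low liver level pulls that mean down. Within muscle the A/J mean of 4.24 ± 0.706 TPM was the lowest and the SJL mean of 38.5 ± 4.66 TPM the highest, with 19.7 ± 3.53 TPM in DBA/2J and 20.3 ± 5.20 TPM in C57BL/6J. In visceral fat the means were 6.97 TPM in A/J, 21.7 TPM in SJL, 22.7 TPM in DBA/2J and 17.9 TPM in C57BL/6J. In subcutaneous fat they were 5.71, 13.7, 22.0 and 15.3 TPM in the same order. Muscle thus ranked first in SJL and C57BL/6J, and below both white fats in A/J and DBA/2J. The fit behind the 3.55-fold value gives 1 difference for all strains.

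The annexin and S100 genes were highest in white fat. Anxa2 averaged 991 TPM in visceral fat, 561 TPM in subcutaneous fat, 225 TPM in brown fat, 53.4 TPM in muscle and 10.8 TPM in liver, and Anxa1 and S100a11 also had their top means in visceral fat, at 501.8 and 2334 TPM. Muscle was below the log2 mean of the other 4 tissues for Anxa1 (-0.61), Anxa2 (-1.22), S100a10 (-1.24) and S100a11 (-1.40), all called. S100a10 was the exception in liver, where its 156 TPM stood above brown fat at 134 TPM and muscle at 71.1 TPM. Myof averaged 2.64 TPM in muscle and 17.1 TPM in visceral fat, and Anxa6 174 TPM in muscle and 603 TPM in visceral fat; against the mean of the other 4 tissues neither was called in muscle (0.07 and -0.06). Within muscle the order by TPM was Anxa6, Trim72, S100a11, Cav3, S100a10, Anxa2, Capn3, Anxa1, Dysf and Myof.

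**Figure D5:**
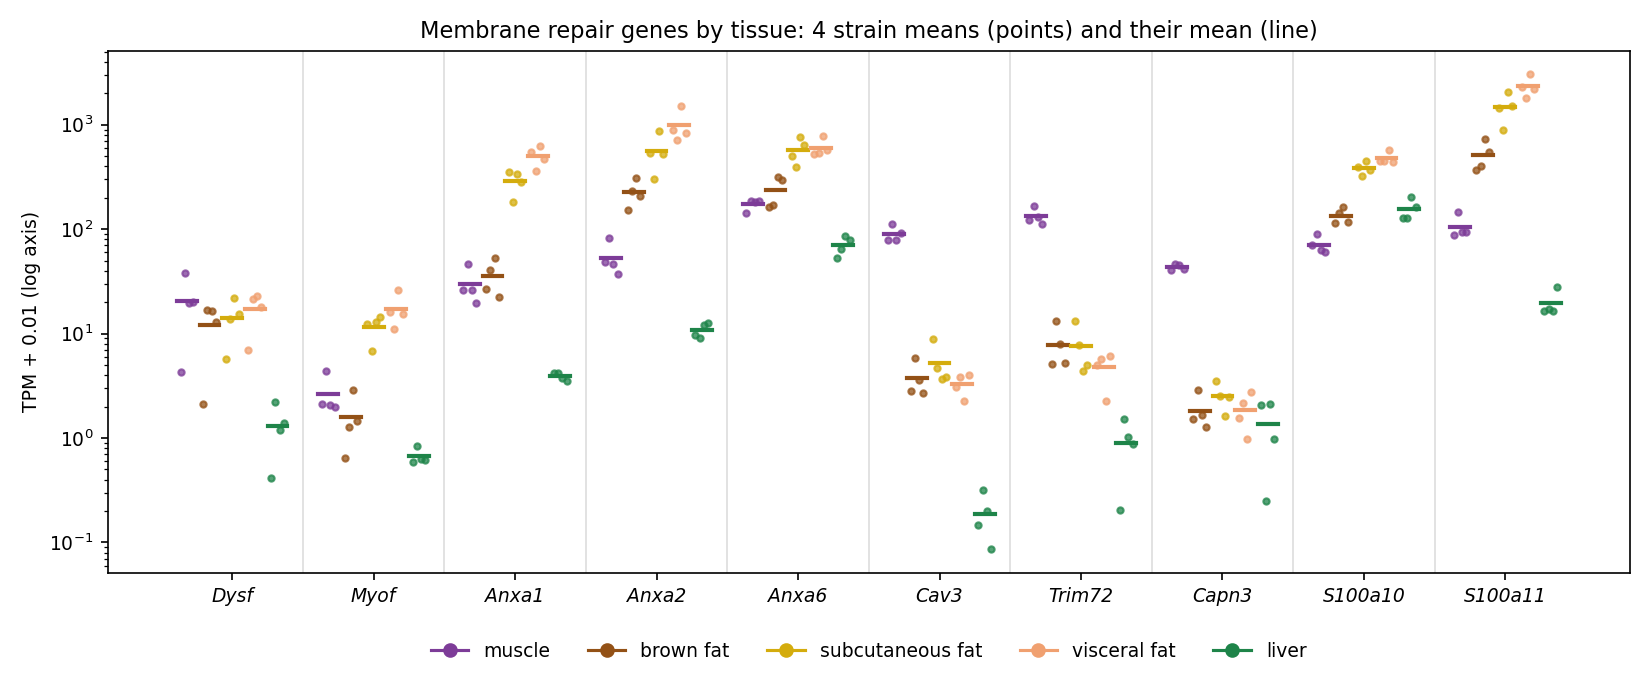
Level of each gene in the 5 tissues as TPM + 0.01 on a log axis; each point is the mean of 8 libraries of a strain and each line the mean of the 4 strains. Cav3, Trim72 and Capn3 stand out in muscle, Dysf is spread over muscle and fat, and Anxa2 and S100a11 peak in visceral fat; the lowest Dysf point of each tissue is A/J.

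Diet did not move these genes past the threshold. Over the 3 diet terms together 0 of the 10 genes were called in any tissue by edgeR, where 0% of all genes were called in muscle, subcutaneous and visceral fat, 0.0247% in brown fat and 0.0268% in liver; at an unadjusted p under 0.05 there were 491 genes in muscle and 0 of the 10. At that level 1 of the 10 was found in brown fat (2338 of all genes), 1 in liver (2400 of all genes) and 0 in subcutaneous and visceral fat, and DESeq2 also called 0 of the 10 in each tissue. Dysf in muscle averaged 71.7 ± 44.5 CPM on the Mediterranean, 73.2 ± 41.6 CPM on the Vegetarian and 70.1 ± 43.5 CPM on the Vegan diet, against 68.8 ± 42.0 CPM on the American diet (8 libraries each, 2 per strain, so the SD holds the strain differences). The log2 differences were 0.04, 0.11 and -0.04 with 95% intervals within -0.32 to 0.39. The smallest unadjusted p values among the 10 genes were for Anxa6 in liver on the Mediterranean diet (100.1 ± 29.0 CPM on the Mediterranean against 80.1 ± 19.0 CPM on the American diet, log2 0.33, unadjusted p = 0.00707, adjusted p = 0.191 in edgeR) and Anxa1 in brown fat on the Vegan diet (38.7 ± 18.5 CPM on the Vegan against 50.8 ± 17.2 CPM on the American diet, -0.44, 0.0152, adjusted 0.23). Interactions of strain and diet gave 0 calls by edgeR among the 10 genes in each tissue, where 0% of all genes were called in muscle, subcutaneous fat and liver, 0.0099% in brown fat and 0.22% in visceral fat. Unadjusted, the interaction had a p under 0.05 for 1 of them in muscle, 2 in brown fat, 1 in subcutaneous fat, 6 in visceral fat and 2 in liver. Over all genes the same was found for 1151 of 20118, 1309 of 20210, 922 of 23508, 2823 of 22715 and 1362 of 18636, in the same order of tissues. Without a filter on low counts Cav3 was called in muscle.

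By the pattern of its level over the 20 means of tissue and strain, genes with a pattern close to that of Dysf, among 18737, included Tmem8b (Pearson r of log2(TPM+1) 0.913), Gm20659 (0.901), Tom1l2 (0.895) and Apol10b (0.886). For Anxa2 over the 32 muscle libraries, among 16024 genes, the most alike were Vim (the intermediate filament vimentin, 0.942), Anxa1 (itself among the 10, 0.928), Npc2 (0.922), Crtap (0.920) and Lgals3 (0.920). Of the other genes of the set S100a11 reached 0.887, Trim72 0.735, Myof 0.656, Cav3 0.618, Dysf 0.382, S100a10 0.337, Capn3 0.294 and Anxa6 0.214. These r come from libraries that share strain, depth and cell makeup, and they are descriptions with no test.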

How the data were processed

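Per the labels, poly-A RNA was made into stranded TruSeq libraries and sequenced on a NovaSeq6000. Per the submitters' processing notes, FastQC, Trim Galore, HISAT2 and HTSeq were used with the GRCm39 build; the strand setting and annotation release, not given in the sources used here, could not be checked. As deposited by the authors, the gene counts are ones in which reads of several sites count in fractions: they are estimated counts, 74.4% of the non-zero ones whole within 1e-06, and were rounded for the tests. The authors also deposited TPM, used as deposited for levels across genes and tissues. All 10 genes and the lists were chosen with earlier results of these data known. All named genes are the 10 genes, up to 3 called genes of each pathway list with the smallest adjusted p plus any that a small count refers to, and the marker genes beside a result; a few genes this rule names are not reported here.

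Counts were filtered within a tissue (filterByExpr, count minimum 10, total minimum 15), scaled by TMM and tested with edgeR 4.0.16 (R 4.3.3), quasi-likelihood F-test with robust dispersion, with strain and diet as terms and Benjamini-Hochberg adjustment over all genes tested (20118 in muscle, 20210 in brown fat, 23508 in subcutaneous fat, 22715 in visceral fat and 18636 in liver); an adjusted p under 0.05 was called. A/J and SJL were set against the mean of C57BL/6J and DBA/2J, and therefore share these control samples. A fit of all 160 libraries (23332 genes) tested differences between tissues. Only the edgeR fits of muscle (A/J and SJL) and of all tissues (A/J) were run on simulated counts, with outcomes not reported here. No 2 libraries of a tissue agreed within sampling noise.

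Alternatives were RLE factors, no filter, DESeq2 1.42.0, limma 3.58.1 on log2(TPM+1) or log2(TPM+0.1), a model of all 16 strain and diet cells, either control strain alone, Alb or the muscle fibre markers as a covariate, leaving out libraries with Alb above 10% of its liver mean, and leaving out each of 32 muscle libraries; unscaled totals and the removal of libraries low in a depot marker were chosen after seeing the data. Across tissues the mouse number pairs libraries of the same animal: residuals of the same mouse in different tissues had a median correlation of 0.0522 over 308 pairs. The value was -0.0015 for different mice of the same strain in different tissues. Each mouse is a separate animal, and p-values within a tissue reflect the spread between animals of a strain. The main fit of all 160 libraries had no term for the mouse, so libraries of 1 animal entered it as separate. A fit with the mouse as a block was run beside it. The 95% intervals are approximate: they use an SE derived from the F statistic and a normal quantile, and can be narrower than the test. For Capn3 in A/J muscle the interval was -0.402 to -0.00396, at an unadjusted p of 0.0551 in edgeR's test.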

Additional observations from a re-analysis of the deposited data

Results flagged for a closer look

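Of 200 groups of 8 libraries (10 genes, 5 tissues and 4 strains) 28 had a highest or lowest TPM far from the rest by Dixon's test at 95%, where chance gives about 1 in 20. In most of them the gene was Cav3, Trim72 or Capn3, the tissue a fat depot and the library the highest of its strain. In visceral fat, C57BL/6J mouse 2 had 23.5 TPM of Cav3, 38.0 TPM of Trim72 and 12.6 TPM of Capn3, against 3.29, 5.81 and 2.78 TPM in the next library, and its muscle fibre markers were at 26.1% of their muscle median. A/J mouse 22 had 14.2, 20.9 and 5.58 TPM of these genes in visceral fat, with fibre markers at 11.2%, and DBA/2J mouse 45 had 8.90, 9.92 and 4.44 TPM. In subcutaneous fat, SJL mouse 64 had 22.7, 44.6 and 10.1 TPM, with fibre markers at 15.5%, and DBA/2J mouse 42 had 12.3, 15.9 and 3.96 TPM, with fibre markers at 9.98%. In brown fat, A/J mouse 27 had 15.7 TPM of Trim72 and 4.8 TPM of Capn3, and DBA/2J mouse 33 had 10.4 TPM of Cav3.

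In visceral fat, A/J mouse 24 had the lowest Anxa1 (247 TPM), Anxa2 (412 TPM), S100a10 (272 TPM) and S100a11 (994 TPM) of its strain, and the same library had Alb at 22.5% of the liver mean and 2986 CPM of the brown fat gene Ucp1; their part was not tested. DBA/2J mouse 40 had 897 TPM of Anxa1 and C57BL/6J mouse 9 had 685 TPM of S100a10, both the highest of their strain in visceral fat. Myof was low in A/J mouse 18 (0.224 TPM) and high in SJL mouse 49 (2.09 TPM) in brown fat, and high in SJL mouse 54 (1.85 TPM) in liver. Liver Cav3 in A/J mouse 18 was 0.477 TPM, at a level of few reads.

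The strain difference was tested between muscle and the mean of the other 4 tissues, and 8 values passed. For A/J they were Dysf (-0.46 on the log2 scale) and Anxa2 (0.55). For SJL they were Dysf (0.44), Myof (1.32), Anxa1 (0.95), Anxa2 (1.28), S100a10 (0.53) and S100a11 (0.91).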

How the results depend on the processing

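Dysf kept its direction and its call in A/J and SJL muscle under every alternative run, and with 1 library left out its log2 difference was -2.40 to -2.30 in A/J and 0.65 to 0.75 in SJL. The number of the 10 genes called in muscle moved more. In A/J it was 2, against 4 without the libraries rich in Alb and 1 with DBA/2J alone as the reference (2 to 3 with 1 library left out). In SJL it was 4, against 7 without the libraries rich in Alb or with Alb as a covariate, and 8 with limma on log2(TPM+1), log2(TPM+0.1) or without a filter, or without scaling (4 to 5 with 1 library left out). In SJL against A/J it was 5, against 8 with each limma fit and without scaling (4 to 6). In DBA/2J against C57BL/6J it was 0, against 2 with DESeq2, 1 with RLE factors and with each limma fit, and 5 without the libraries rich in Alb (0 to 3). Leaving the totals unscaled moved the median of all genes by 0.21 in SJL and 0.13 in A/J, and limma on TPM by 0.22 and 0.10. In visceral fat 2 genes were called in A/J (Dysf and Anxa6) with DESeq2, the 16-cell model, Alb as a covariate or without SJL mouse 50, and in SJL 3 with DESeq2 and 4 with the 16-cell model. Without a filter 1 gene was called for the interaction in muscle (Cav3), for the diets in liver (S100a10) and for A/J muscle against other tissues (Anxa2). The causes of these shifts were not tested.

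Some genes whose values changed sign under 1 setting were called under another. Without the libraries rich in Alb, Trim72 in A/J, Anxa6 and Capn3 in SJL, and Capn3 and S100a11 in DBA/2J against C57BL/6J were called lower. Cav3 in SJL was called higher with limma and unscaled. The values that changed sign were themselves small and not called. In A/J muscle these were Myof (0.037 and 0.048 with limma at the pseudocounts of 1 and 0.1, 0.080 unscaled, 0.056 against DBA/2J alone, -0.11 to 0.022 with 1 library left out), Trim72 (0.014 with limma, 0.024 unscaled), Anxa2 (-0.011 without libraries rich in Alb) and Cav3 (0.058 against DBA/2J alone). In SJL they were Anxa6 (0.018 with limma), Capn3 (0.11 with limma, 0.085 unscaled) and Cav3 (-0.048 against C57BL/6J alone), and in SJL against A/J Capn3 (-0.032 with Alb as a covariate, -0.012 without libraries rich in Alb). In DBA/2J against C57BL/6J they were Myof (0.039 and 0.070 with limma), Anxa2 (-0.016 with DESeq2 and RLE factors, -0.024 with the 16-cell model, -0.17 without libraries rich in Alb, -0.13 to 0.12 with 1 library left out), Trim72 (0.082 with Alb as a covariate, 0.23 with limma, 0.16 unscaled, -0.12 to 0.024 with 1 library left out), Capn3 (0.17 with limma, 0.081 unscaled), S100a10 (0.10 with limma) and S100a11 (1.66e-05 with limma at 0.1).

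With the mouse as a replicate block in the fit of all tissues no call of the 10 genes changed: the counts stayed at 2 for A/J, 6 for SJL and 8 for muscle against other tissues, and the A/J Dysf value was -0.45 (adjusted p = 0.0402) and that of SJL 0.45 (adjusted p = 0.0141).

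In liver Cav3, Trim72 and Capn3 had few counts, and A/J livers 26 to 49 counts of Dysf, so that counting error weighs on these values. Gene counts show neither the exon skip in SJL nor protein. Strain and dysferlin allele cannot be told apart in these animals.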
